A study of Mus musculus with 36 samples.

Results

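The 9 genes described here are the Egr and Nr4a transcription factors and the Egr corepressors, taken by name from the table of gene counts: Egr1, Egr2, Egr3, Egr4, Nr4a1, Nr4a2, Nr4a3, Nab1 and Nab2. They are 9 of the 55421 genes in the table, and all 9 were among the 19478 genes that passed the filter on low counts. Egr1 to Egr4 are zinc-finger factors of the immediate-early class. Their genes are switched on within minutes of synaptic activity, through MAP kinase signalling to serum response factor (SRF) and its Elk partners. The Nr4a proteins are orphan nuclear receptors whose genes respond to activity through the CREB and MEF2 factors, and Nr4a1 and Nr4a2 can pair with retinoid X receptors (RXR). Nab1 and Nab2 bind Egr proteins and repress their target genes, and Nab2 is itself a target of Egr factors. In the hippocampus these genes are used as markers of recent neuronal activity and have been linked to memory consolidation.

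RNA was sequenced from slices of the right hippocampus of 16-month-old mice. Wild-type (WT) mice were C57BL/6, and T41B mice carried human APP with the London and Swedish mutations (Thy1-hAPPLond/Swe, Line 41), an amyloid model in which a Thy1 promoter drives the transgene. From 13 to 16 months of age the mice were given vehicle (VEH) or PTX-BD10-2 (BD10-2) by gavage, a compound that the series title describes as partly activating TrkB and TrkC, receptors for neurotrophins. A slice then received theta-burst stimulation (STIM), given 3 times as 10 bursts, each of 4 stimuli at 100 Hz, or a sham procedure of the same length (noSTIM), and was frozen at once. Every group, the sham groups included, thus consists of cut slices that went through the recording procedure. The 8 groups held 4 WT VEH, 4 T41B VEH, 3 WT BD10-2 and 5 T41B BD10-2 samples for the sham procedure and the same numbers for stimulation. In all there were 18 mice, of which 14 gave both slices, and the 2 slices of each of these 14 mice carry the same batch label.

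The 36 libraries held 11597555 to 28125842 counts, with a mitochondrial share of 2.0% to 5.4%. For 4 samples 2 libraries carried equal labels and were added, which left 32 samples. Thy1, part of the transgene cassette, lay at 253 to 403 CPM (read counts relative to library size, with TMM scaling) in the 16 WT libraries and at 918 to 2504 CPM in the 20 T41B libraries. The lowest T41B value belonged to 1 of the 2 libraries of the stimulated slice of Mouse1592, and the other library of that slice held 1937 CPM. The 2 sham libraries of Mouse1565 differed from each other more than libraries of different mice in their group did (chi-square per degree of freedom 31.6, against 8.93 to 29.1). Whether 1 of them is mislabelled was not tested, and the summed sham values of Mouse1565 carry that limit. They held 149 and 103 CPM of Egr3, a gap of 0.52 on the log2 scale, and the 2 sham libraries of Mouse1557 held 46.5 and 33.6 CPM of Nab1, a gap of 0.46. These gaps between libraries with the same labels are larger than the average stimulation differences of Egr3 and Nab1 given below. Values without these mice are given where they change a call. All 7 neuronal markers (Snap25, Rbfox3, Syt1, Slc17a7, Camk2a, Gad1 and Gad2) and all 4 markers of CA pyramidal cells were above 0 CPM in every group. So were all 3 markers of the neighbouring thalamus, so that presence alone does not separate the tissues.

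Promoter sequence is shown for Egr2, Egr4, Nr4a1 and Nr4a2 to set their letters beside the stimulation values. Of the 7 members looked at, these are the 4 with a window free of annotated UTR, and Egr1 and Egr3 were not looked at. In the averaged stimulation test Egr2 was higher, Nr4a2 was lower by a call that depended on single mice, and Egr4 and Nr4a1 did not pass. The sequences are RefSeq's (GRCm38.p6), the 250 bases before an annotated start site, 5' to 3' on the strand of the gene, in windows that hold no annotated UTR. Capitals mark matches, on either strand, to the CArG box (the SRF site), to TGACG (the core of the CREB site, which reads CGTCA from the other strand) and to the Egr site GCGGGGGCG.
Egr2, chr10:67537619-67537868 (+): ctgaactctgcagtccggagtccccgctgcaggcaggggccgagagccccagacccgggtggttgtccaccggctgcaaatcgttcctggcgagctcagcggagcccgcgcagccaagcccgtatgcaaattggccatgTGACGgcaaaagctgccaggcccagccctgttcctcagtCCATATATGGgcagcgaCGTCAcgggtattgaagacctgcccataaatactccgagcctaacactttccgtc
Egr4, chr6:85513590-85513839 (-): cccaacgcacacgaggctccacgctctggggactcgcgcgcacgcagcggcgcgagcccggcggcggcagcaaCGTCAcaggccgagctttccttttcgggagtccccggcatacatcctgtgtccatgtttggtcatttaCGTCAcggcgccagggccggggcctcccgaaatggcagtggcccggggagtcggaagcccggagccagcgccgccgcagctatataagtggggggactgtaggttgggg
Nr4a1, chr15:101266596-101266845 (+): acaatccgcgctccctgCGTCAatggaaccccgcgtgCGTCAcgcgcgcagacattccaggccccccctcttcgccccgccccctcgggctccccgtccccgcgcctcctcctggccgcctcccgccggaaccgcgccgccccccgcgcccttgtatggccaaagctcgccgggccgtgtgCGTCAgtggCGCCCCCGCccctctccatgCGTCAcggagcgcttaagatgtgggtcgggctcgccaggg
Nr4a2, chr2:57124004-57124253 (-): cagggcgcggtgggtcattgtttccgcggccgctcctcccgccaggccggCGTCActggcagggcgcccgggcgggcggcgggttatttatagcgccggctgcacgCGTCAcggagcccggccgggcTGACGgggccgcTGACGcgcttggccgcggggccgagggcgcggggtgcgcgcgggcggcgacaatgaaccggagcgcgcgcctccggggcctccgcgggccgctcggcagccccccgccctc

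The printed Egr2 window held the CArG box CCATATATGG, 72 to 63 bases before the start site, and 2 TGACG matches. It is 1 of 5 Egr2 windows in the table, of which the pair that overlaps it held the same matches, 1 further upstream held the CArG box CCTTTTTTGG and no TGACG, and the last held no match. A CArG box was present in 1.467% of 32851 RefSeq windows of the same length, and 2 or more TGACG matches in 3.902%. The Nr4a1 window held 4 TGACG matches and an Egr site on the opposite strand, the Nr4a2 window held 4 TGACG matches, and the Egr4 window held 2. The Nr4a3 window, not printed because it overlaps a UTR, also held 4. At least 4 TGACG matches occurred in 0.137% of all windows. The Nab1 window, likewise not printed, held 3 matches to the Egr sites GCGTGGGCG or GCGGGGGCG, a number reached in 0.03348% of windows, and 1 TGACG match. The Nab2 window, also not printed, held none of these motifs. None of the 4 printed windows held the full CREB site TGACGTCA or the Nr4a site AAAGGTCA, which occurred in 1.546% and 1.336% of windows. A match is a description of these letters and not of a bound site.

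Per kilobase of exon, Egr1 was the most abundant of the 9 genes in the slices, with a median of 73.8 CPM per kb over the 32 samples (range 48.2 to 119). Nr4a1 followed at 45.3 (31.6 to 62.1), then Egr3 at 25.7 (20.3 to 40.1), Egr4 at 22 (12.6 to 33.1) and Nr4a3 at 21.7 (15.9 to 28.1). Nr4a2 stood at 12.8 CPM per kb (8.04 to 19.7), Nab2 at 11.7 (9.26 to 16.1), Nab1 at 9.68 (6.79 to 14.6) and Egr2 at 4.00 (1.46 to 6.76). Each gene's range overlapped that of its neighbour in this order, except that the highest Egr2 value lay below the lowest Nab1 value. Raw counts per sample ran from 69 to 643 for Egr2 and from 4187 to 21505 for Egr1, so counting error weighs most on Egr2.

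In GENCODE M21 (GRCm38) the genes lie on 8 chromosomes. Egr1 is on chromosome 18 (34859823-34864984, + strand), Egr2 on chromosome 10 (67535475-67542188, +), Egr3 on chromosome 14 (70077203-70082614, +) and Egr4 on chromosome 6 (85511121-85513589, - strand). Nr4a1 lies on chromosome 15 (101254269-101274795, +), Nr4a2 on chromosome 2 (57106830-57124003, -) and Nr4a3 on chromosome 4 (48045153-48086447, +). Nab1 is on chromosome 1 (52457294-52500679, -). Nab2, on chromosome 10 (127660918-127668568, -), overlaps 3 genes of the opposite strand, Nemp1 by 1668 bases, Gm16229 by 1646 and Stat6 by 40. The library kit keeps strand, per the labels, but whether the counting used it is not given in the sources used here, so the Nab2 counts are uncertain. The other 8 genes overlap no annotated gene.

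The first comparison asked how the members responded to theta-burst stimulation. Averaged over the 4 combinations of genotype and treatment, Egr2, Egr3, Nab1 and Nab2 were higher in stimulated slices and Egr1 and Nr4a2 were lower, while Egr4, Nr4a1 and Nr4a3 did not pass the test (edgeR's quasi-likelihood F test, Benjamini-Hochberg adjusted p under 0.05 over all 19478 genes). These are 6 of 9 genes, against 46.8% of all genes tested. The median log2 fold change of the 9 was 0.17, against -0.03 over all genes. In the separate combinations 4 of 9 passed in WT VEH mice (12.3% of all genes), 3 in T41B VEH (21.5%), 2 in WT BD10-2 (8.87%) and 4 in T41B BD10-2 (22.9%). The sham and stimulated groups did not overlap for 4, 2, 5 and 1 of the 9 genes in these combinations, against 16.1%, 20.4%, 32.9% and 15.3% of all genes. Within the 14 mice that gave both slices, an exact two-sided sign-flip test over all genes called 5 of the 9, namely Egr1, Egr2, Egr3, Nab1 and Nab2, against 49.8% of all genes. The smallest p that this design allows is 0.000122.

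**Figure D1:**
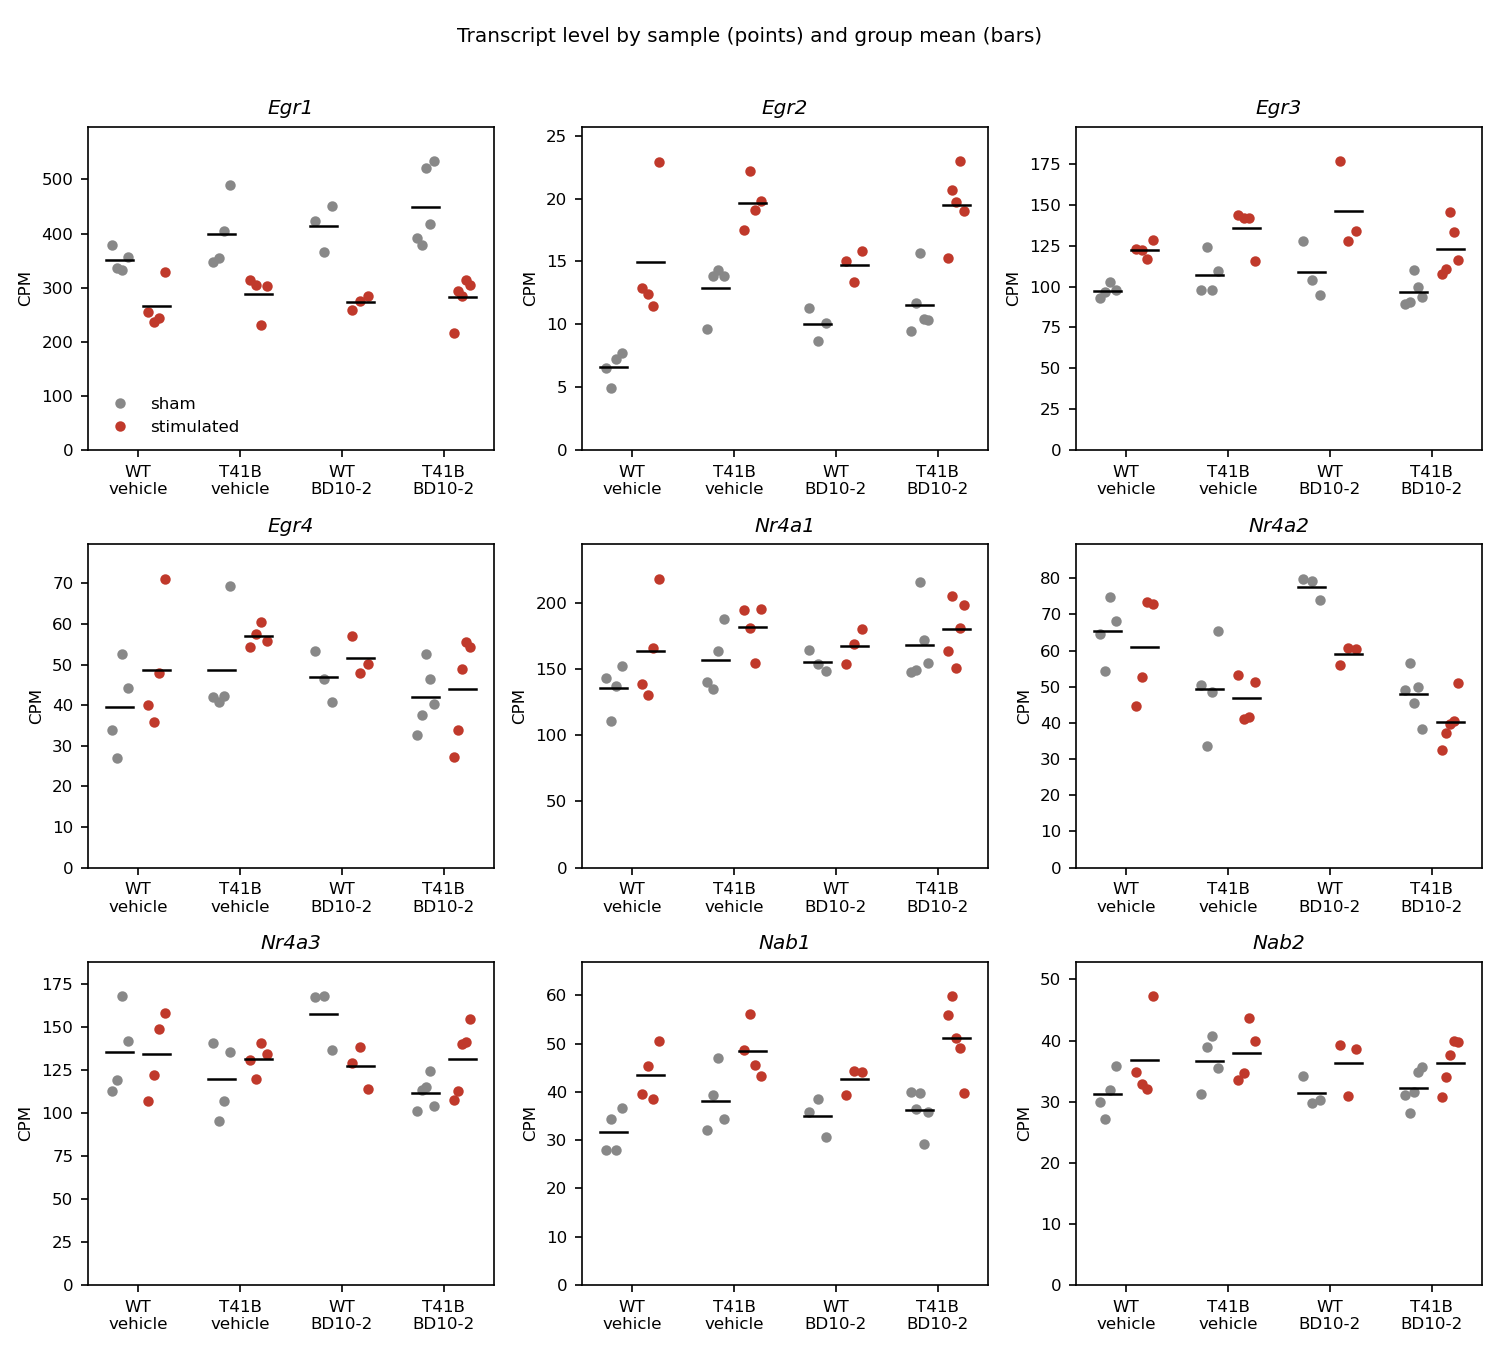
Level of each gene in CPM (vertical axes, from 0) in every sample, by genotype and treatment, with sham slices in grey, stimulated slices in red and the group mean as a black bar. The 16 stimulated slices lie below all 16 sham slices for Egr1, at most 329 against at least 333 CPM, whereas Egr2 is higher with stimulation in each combination.

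Egr1, the most widely used activity marker of the family, was lower in stimulated slices. In WT VEH mice the 4 sham slices held 379, 335, 333 and 356 CPM and the 4 stimulated slices 255, 237, 245 and 329 CPM. In T41B VEH mice the values were 347, 355, 404 and 490.1 CPM in sham slices and 315, 305, 230.4 and 303 CPM in stimulated slices. In WT BD10-2 mice they were 423, 365 and 451 CPM against 259, 276 and 284 CPM. No stimulated slice reached its own sham group in any of these 3 combinations. In T41B BD10-2 mice the sham slices held 391.8, 379, 521.5, 418 and 534 CPM and the stimulated slices 216, 294, 285, 314 and 305 CPM, again without overlap. Over all 32 samples the stimulated and sham values did not overlap, which was true of 2.26% of all genes. The average log2 fold change was -0.53 with an SE of 0.07 (edgeR adjusted p = 1.48e-07), 0.691 times the sham level. It was -0.40 in WT VEH, -0.47 in T41B VEH, -0.60 in WT BD10-2 and -0.67 in T41B BD10-2 mice, and passed the test in all 4 (edgeR adjusted p = 0.0450, 0.0101, 0.0110 and 8.06e-05). Within mice Egr1 was lower in the stimulated slice in 14 of 14, by a mean of -0.54 ± 0.25 (SD, n = 14) on the log2(CPM + 1) scale (exact sign-flip p = 0.000122, adjusted p = 0.000846). All 14 pairs pointed the same way, up or down, for 14.4% of all genes.

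The separate Egr1 calls in WT VEH, T41B VEH and WT BD10-2 mice depended on single mice, and 2 of them on the setting. The WT VEH call was lost without Mouse1509, Mouse1513 or Mouse1522 (log2 fold change -0.38 to -0.34, edgeR adjusted p = 0.131 to 0.217), the T41B VEH call without Mouse1553 or Mouse1579 (-0.38 to -0.37, adjusted p = 0.0706 to 0.0951), and the WT BD10-2 call without Mouse1565 or Mouse1590 (-0.55 to -0.53, adjusted p = 0.0687 to 0.116). In WT VEH mice Egr1 also did not pass with no filter on low counts (-0.38, edgeR adjusted p = 0.0671), with only the 2 groups compared in the fit (-0.40, adjusted p = 0.0515) or without the samples of 2 libraries (-0.40, adjusted p = 0.0625). The last setting ended the WT BD10-2 call too (-0.61, edgeR adjusted p = 0.0717). The averaged and the within-mouse calls held in every setting tried.

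Egr2, the factor best known for myelination and also induced by strong activity in neurons, was the lowest-expressed member and rose the most. In WT VEH mice it stood at 6.52, 4.97, 7.23 and 7.74 CPM in sham slices and at 12.9, 12.4, 11.5 and 22.9 CPM in stimulated slices. In T41B VEH mice sham slices held 9.63, 13.9, 14.3 and 13.8 CPM and stimulated slices 17.5, 22.2, 19.1 and 19.8 CPM. In WT BD10-2 mice the sham values were 11.3, 8.67 and 10.1 CPM and the stimulated ones 15, 13.4 and 15.8 CPM. Sham and stimulated samples were separate in these 3 combinations. They overlapped in T41B BD10-2 mice, with 9.48, 11.7, 15.7, 10.4 and 10.4 CPM in sham and 15.2, 20.7, 19.7, 22.98 and 19 CPM in stimulated slices. The average log2 fold change was 0.77 with an SE of 0.09 (edgeR adjusted p = 7.46e-08), a 1.71-fold rise. It was 1.16 in WT VEH (SE 0.19, edgeR adjusted p = 6.63e-05), 0.60 in T41B VEH (SE 0.18, adjusted p = 0.0158) and 0.76 in T41B BD10-2 mice (SE 0.16, adjusted p = 0.000753). In WT BD10-2 mice the value of 0.55 (SE 0.21, adjusted p = 0.0985) did not pass, but it did with only the 2 groups compared in the fit (0.55, edgeR adjusted p = 0.0249). The T41B VEH call was lost without Mouse1510 or Mouse1551 (0.55 and 0.58, edgeR adjusted p = 0.0586 and 0.0723). Within mice the difference was 0.70 ± 0.32 (SD, n = 14) on the log2(CPM + 1) scale, higher in 14 of 14 (exact sign-flip p = 0.000122, adjusted p = 0.000846).

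Egr3, a close relative of Egr1 that shares its DNA site and has been tied to synaptic plasticity, also rose. Sham and stimulated values were 92.8, 96.7, 102.7 and 97.7 against 123, 123, 117 and 128 CPM in WT VEH mice. They were 97.7, 124, 97.7 and 109.7 against 144, 142, 142 and 116 CPM in T41B VEH mice, which overlap. In WT BD10-2 mice they were 128, 104 and 95.1 against 177, 128 and 134 CPM. The WT VEH groups were separate, and in WT BD10-2 mice the 2 values nearest to each other (127.6 and 127.7 CPM) nearly touch. In T41B BD10-2 mice sham slices held 89.5, 90.5, 110.4, 99.6 and 93.8 CPM and stimulated slices 108, 111, 146, 133 and 117 CPM. On average the log2 fold change was 0.36 with an SE of 0.06 (edgeR adjusted p = 4.70e-06), or 1.28-fold. It was 0.33, 0.34, 0.42 and 0.34 in WT VEH, T41B VEH, WT BD10-2 and T41B BD10-2 mice (edgeR adjusted p = 0.0450, 0.0257, 0.0316 and 0.0103). Within mice Egr3 was higher in 14 of 14 stimulated slices, by 0.32 ± 0.17 (SD, n = 14; exact sign-flip p = 0.000122, adjusted p = 0.000846).

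Egr3 passed in all 4 combinations, but each of those calls depended on single mice. Leaving out any mouse of WT VEH (Mouse1509, Mouse1513, Mouse1522, Mouse1524) gave log2 fold changes of 0.31 to 0.38 and edgeR adjusted p of 0.0689 to 0.176. The same held for Mouse1510 and Mouse1553 in T41B VEH (0.28, adjusted p = 0.151 and 0.165), for Mouse1565, Mouse1571 and Mouse1590 in WT BD10-2 (0.34 to 0.47, adjusted p = 0.0867 to 0.191) and for Mouse1570 in T41B BD10-2 (0.29, adjusted p = 0.0628). With the mouse as a block, Egr3 was 0.39 in WT BD10-2 mice, where 2 pairs remain, and did not pass (edgeR adjusted p = 0.0737). The WT VEH call of Egr3 was also lost with RLE size factors (0.33, edgeR adjusted p = 0.0510) and with no filter on low counts (0.35, adjusted p = 0.0581). With no filter the WT BD10-2 call was lost as well (0.43, edgeR adjusted p = 0.0526). With only the 2 groups compared in the fit Egr3 did not pass in T41B VEH (0.34, edgeR adjusted p = 0.0566) or WT BD10-2 mice (0.42, adjusted p = 0.0940). Without Mouse1565, whose sham libraries differ, the averaged value was 0.35 (edgeR adjusted p = 5.04e-06).

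Egr4, the last of the 4 Egr factors, did not pass in any combination. Its values ran from 27.1 to 71.2 CPM over the 32 samples, and sham and stimulated slices overlapped in all 4 combinations. The average log2 fold change was 0.19 with an SE of 0.11 (edgeR adjusted p = 0.176), and Egr4 was higher in 10 of 14 stimulated slices of the same mouse (0.13 ± 0.39, SD; exact sign-flip p = 0.238, adjusted p = 0.325).

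The corepressors rose with stimulation. Nab1 stood at 27.9, 34.4, 27.9 and 36.7 CPM in sham and 39.6, 45.4, 38.5 and 50.6 CPM in stimulated WT VEH slices, without overlap. In T41B BD10-2 mice it was 39.9, 36.3, 39.8, 29.3 and 35.8 CPM in sham and 55.9, 59.8, 51.1, 49.2 and 39.7 CPM in stimulated slices. The lowest stimulated value there, from Mouse1592, lies just under the highest sham values. In T41B VEH mice Nab1 ran from 32.1 to 47.0 CPM in sham and from 43.3 to 56.1 CPM in stimulated slices, and in WT BD10-2 mice from 30.6 to 38.6 and from 39.4 to 44.3 CPM. Over the 4 combinations the log2 fold change was 0.39 with an SE of 0.07 (edgeR adjusted p = 1.63e-05), or 1.31-fold. It was 0.46 in WT VEH (adjusted p = 0.0203) and 0.49 in T41B BD10-2 mice (adjusted p = 0.00219), and 0.34 (adjusted p = 0.0599) and 0.28 (adjusted p = 0.265) in T41B VEH and WT BD10-2 mice, all by edgeR. The WT VEH call was lost without any of its 4 mice, Mouse1509, Mouse1513, Mouse1522 or Mouse1524 (0.44 to 0.47, edgeR adjusted p = 0.0547 to 0.0833). Within mice Nab1 was higher in 13 of 14 stimulated slices (0.40 ± 0.23, SD; exact sign-flip p = 0.000244, adjusted p = 0.00131), the exception being Mouse1553 (-0.05). In T41B VEH mice Nab1 passed in several alternatives, namely with the mouse as a block (0.35, edgeR adjusted p = 0.0160), with RLE size factors (0.37, adjusted p = 0.0432), with the batch as a covariate (0.36, adjusted p = 0.0183), with DESeq2 (0.37, adjusted p = 0.0335) and without Mouse1553 (0.49, edgeR adjusted p = 0.0198).

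Nab2 ran from 27.2 to 47.3 CPM and its sham and stimulated groups overlapped in every combination. The average log2 fold change was 0.17 with an SE of 0.06 (edgeR adjusted p = 0.0254), which passed, but it did not pass without Mouse1579 (0.16, adjusted p = 0.0516) or without the samples made of 2 libraries (0.16, adjusted p = 0.0684). Within mice it was higher in 13 of 14 (0.13 ± 0.13, SD; exact sign-flip p = 0.00232, adjusted p = 0.00714). With the mouse as a block, Nab2 also passed in WT VEH mice (0.22, edgeR adjusted p = 0.0338). Of the genes that overlap Nab2 on the other strand, Nemp1, with the longest overlap, was lower on average (-0.24, SE 0.08, edgeR adjusted p = 0.0136), Stat6 did not pass (-0.02, SE 0.06, edgeR adjusted p = 0.794) and Gm16229 was not among the genes tested.

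Among the Nr4a receptors only Nr4a2, which dopaminergic neurons need for their identity, passed the averaged test, and it was lower. It stood at 64.7, 54.3, 74.9 and 68.3 CPM in sham and 44.7, 52.7, 73.4 and 73.0 CPM in stimulated WT VEH slices, and at 79.9, 79.3 and 73.9 against 56.2, 60.6 and 60.5 CPM in WT BD10-2 mice. The groups were separate in WT BD10-2 mice alone. The average log2 fold change was -0.21 with an SE of 0.08 (edgeR adjusted p = 0.0410), and no single combination passed. Nr4a2 did pass in WT BD10-2 mice with only the 2 groups compared in the fit (-0.40, edgeR adjusted p = 0.0129) and in T41B BD10-2 mice without Mouse1592 (-0.42, adjusted p = 0.0485). Within mice Nr4a2 was lower in 10 of 14 (-0.18 ± 0.33, SD; exact sign-flip p = 0.0588, adjusted p = 0.102), and it passed without Mouse1592 (-0.23, exact sign-flip adjusted p = 0.0393). The averaged call was lost without any of 10 mice (Mouse1509, Mouse1553, Mouse1557, Mouse1563, Mouse1564, Mouse1565, Mouse1570, Mouse1571, Mouse1579 and Mouse1586), with log2 fold changes of -0.21 to -0.17 and edgeR adjusted p of 0.0507 to 0.0885, and with no filter on low counts (-0.19, edgeR adjusted p = 0.0651).

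Nr4a1 (Nur77), a receptor often studied in activity-dependent plasticity, ran from 111 to 218 CPM with overlapping groups in all 4 combinations. Its average log2 fold change of 0.17 (SE 0.07) lay at the threshold (edgeR adjusted p = 0.0511), and it was higher in 9 of 14 mice (0.15 ± 0.23, SD; exact sign-flip p = 0.0321, adjusted p = 0.0618). With RLE size factors it passed (0.18, edgeR adjusted p = 0.0365), as it did with DESeq2 (0.18, adjusted p = 0.0305), with the batch as a covariate (0.17, edgeR adjusted p = 0.0250), with no filter on low counts (0.19, edgeR adjusted p = 0.0353) and without any of 7 mice (Mouse1509, Mouse1513, Mouse1553, Mouse1564, Mouse1565, Mouse1570 and Mouse1579; 0.17 to 0.19, edgeR adjusted p = 0.0285 to 0.0497). Nr4a3 (Nor1) did not pass, at 0.01 (SE 0.07, edgeR adjusted p = 0.896), with 6 of 14 mice higher (exact sign-flip p = 0.594, adjusted p = 0.672).

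**Figure D2:**
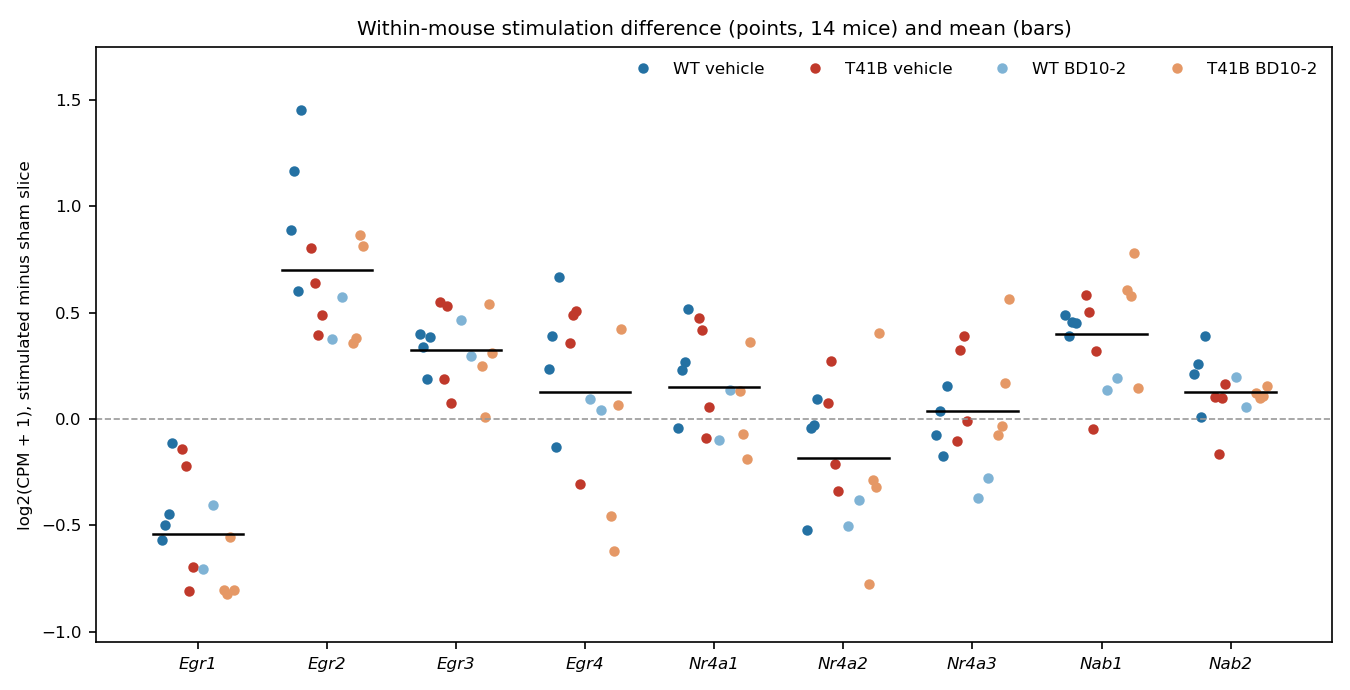
Difference between the stimulated and the sham slice of the same mouse on the log2(CPM + 1) scale for each gene, with 1 point per mouse (14 mice, coloured by genotype and treatment) and the mean as a black bar. Egr1 lies below 0 and Egr2 and Egr3 above 0 in all 14 mice, and Nr4a3 scatters around 0.

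The proportions of some members to each other differed between the slices of a mouse. The log2 ratio of Egr2 to Egr1 was higher in the stimulated than in the sham slice by 1.3 ± 0.29 (SD, n = 14) and that of Egr3 to Egr1 by 0.87 ± 0.27 (SD), each in 14 of 14 mice. The ratio of Nr4a1 to Nr4a2 was higher in 13 of 14 mice (0.34 ± 0.24, SD) and that of Nr4a3 to Nr4a2 in 12 of 14 (0.22 ± 0.27, SD). The ratios were chosen after the values were seen and carry no test.

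Cell type markers moved with stimulation as well, in an averaged test that 46.8% of all genes passed. All 4 microglial markers (Tmem119, P2ry12, Cx3cr1 and Csf1r) were lower on average in stimulated slices, with a median log2 fold change of -2.24, and their summed level was 137 to 181 CPM in sham against 45.8 to 75.4 CPM in stimulated WT VEH slices. In T41B VEH mice this sum ranged from 242 to 418 CPM in sham and from 99.7 to 119 CPM in stimulated slices, in WT BD10-2 mice from 153 to 184 and from 56.5 to 71.1 CPM, and in T41B BD10-2 mice from 297 to 420.3 and from 109 to 181 CPM. Of 4 astrocyte markers 3 were higher and of 7 neuronal markers 5 were lower (median -0.17, summed level 5756 to 7665 CPM in sham and 4848 to 7637 CPM in stimulated slices). Of the 3 dentate granule cell markers 1 was lower, of the 4 CA pyramidal markers 1 was higher and 1 lower, and none of the 4 oligodendrocyte or 5 choroid plexus markers passed on average. In WT VEH mice alone, where 12.3% of all genes passed, all 5 choroid plexus markers were higher in stimulated slices (median 5.12). In T41B VEH mice (21.5% of all genes) 1 oligodendrocyte marker, Mog, was lower (-0.65, edgeR adjusted p = 0.0397). In T41B VEH mice 2 of the 3 dentate markers were lower too (median -0.80), with a summed level of 219 to 438 CPM in sham and 186 to 218 CPM in stimulated slices. Of 6 endothelial and pericyte markers 1 was higher and 1 lower, and of 3 markers of the neighbouring thalamus 1 was higher. In bulk tissue fewer cells of a type and less RNA per cell cannot be told apart, and the part of these shifts in the values of the 9 genes was not tested. Choroid plexus markers reached 1193 and 976 CPM in the stimulated slices of Mouse1509 and Mouse1513 and 524 CPM in the sham slice of Mouse1553. Mouse1551 held 131 CPM in the sham and 292 CPM in the stimulated slice, and the stimulated slice of Mouse1553 held 113 CPM. All other samples lay at 28.2 CPM or below. Without Mouse1509 or Mouse1513 the WT VEH value of Egr2 was 1.22 or 1.13 and still passed (edgeR adjusted p = 0.000689 and 0.000680). Without Mouse1551 the T41B VEH value of Egr2 was 0.58 and did not pass (edgeR adjusted p = 0.0723). Without Mouse1509, Mouse1513, Mouse1551 or Mouse1553 in turn, Egr1, Egr2, Egr3 and Nab1 still passed the averaged test. Blood and infiltrating myeloid markers did not pass (3 of 6 tested), and S100a8, S100a9 and Ccr2 were under the filter.

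The second comparison asked which members differ between T41B and WT mice. Genotype was partly tied to batch. Batch E held only WT VEH mice and batches G and H only T41B mice, so the genotypes cannot be compared within those batches. Averaged over the 4 combinations of treatment and stimulation, Egr2 and Nab1 were higher and Nr4a2 was lower in T41B mice, 3 of 9 genes against 31.5% of all genes. In single comparisons 1 of 9 passed in sham VEH slices (6.24% of all genes), none in stimulated VEH slices (5.79%), 2 in sham BD10-2 slices (5.45%) and 1 in stimulated BD10-2 slices (10.6%). In stimulated VEH slices 2 of 9 had an unadjusted p under 0.05, and DESeq2 called none. The genotypes did not overlap for 1, 0, 2 and 1 of the 9 genes in these 4 comparisons, against 9.58%, 11.1%, 17.7% and 14.8% of all genes. The averaged fit counts the 2 slices of a mouse as separate samples, so its p-values are too small. With the slices of each of the 14 mice added, which was tried after the data were seen, Egr2 and Nr4a2 passed and Nab1 did not.

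**Figure D3:**
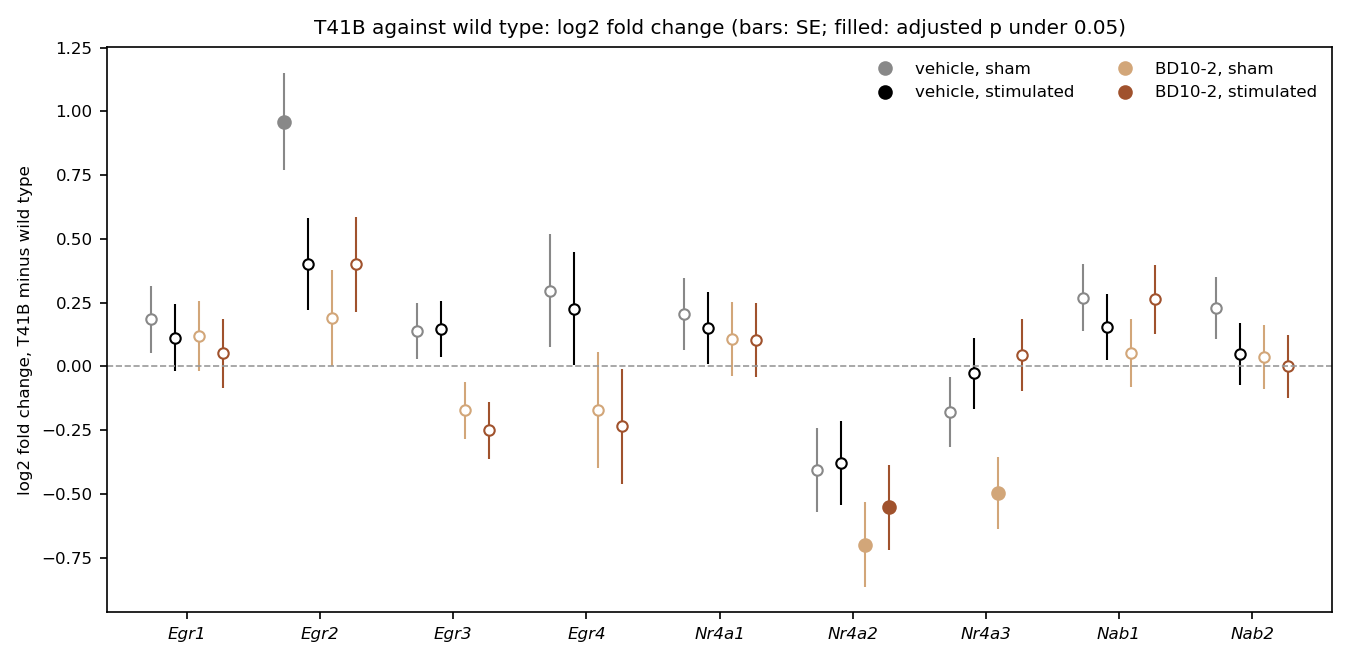
Log2 fold change of T41B against WT mice (vertical axis) for each gene in the 4 combinations of treatment and stimulation, with standard errors as bars and filled points where the edgeR adjusted p is under 0.05. Nr4a2 is below 0 in all 4 comparisons, from -0.70 to -0.38, and Egr2 is above 0 in all 4, from 0.19 to 0.96.

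Nr4a2 was lower in T41B mice. In sham BD10-2 slices it stood at 49.2, 56.6, 45.4, 49.99 and 38.3 CPM in T41B mice and at 79.9, 79.3 and 73.9 CPM in WT mice. In stimulated BD10-2 slices the T41B values were 32.6, 37.1, 39.8, 40.6 and 51.0 CPM and the WT values 56.2, 60.6 and 60.5 CPM. In both the genotypes did not overlap, as was the case for 17.7% and 14.8% of all genes. With VEH they overlapped, at 33.7 to 65.3 against 54.3 to 74.9 CPM in sham slices and 41.0 to 53.2 against 44.7 to 73.4 CPM in stimulated slices. The log2 fold change was -0.70 in sham BD10-2 slices (SE 0.17, edgeR adjusted p = 0.00858), -0.55 in stimulated BD10-2 slices (SE 0.17, adjusted p = 0.0289), -0.41 in sham VEH slices (adjusted p = 0.145) and -0.38 in stimulated VEH slices (adjusted p = 0.209). The average was -0.51 (SE 0.08, edgeR adjusted p = 1.94e-05), or 0.703 times the WT level, and -0.54 (edgeR adjusted p = 0.00234) with the slices of a mouse added. Nr4a2 was lower in T41B mice in all 7 comparisons within a batch and a stimulation state, by -0.93 to -0.06 on the log2(CPM + 1) scale, most of them of 1 mouse against 1. The 7 comparisons come from 4 batches and are not independent, since in 3 of the batches the sham and stimulated slices came from the same or partly the same mice. With the batch as a covariate the average was -0.49 (edgeR adjusted p = 0.000204).

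The separate Nr4a2 calls depended on single mice. The sham call was lost without Mouse1565 (-0.68, edgeR adjusted p = 0.0535) and without the samples of 2 libraries (-0.69, adjusted p = 0.0543). The stimulated call was lost without Mouse1563, Mouse1564, Mouse1565, Mouse1570, Mouse1571 or Mouse1586 (-0.58 to -0.49, edgeR adjusted p = 0.0561 to 0.106). In sham VEH slices Nr4a2 passed without Mouse1579 (-0.57, edgeR adjusted p = 0.0410).

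Egr2 was higher in T41B mice, most so in sham VEH slices, where T41B mice held 9.63, 13.9, 14.3 and 13.8 CPM and WT mice 6.52, 4.97, 7.23 and 7.74 CPM. These groups were separate, as for 9.58% of all genes. The WT values of 6.52 and 4.97 CPM came from batch E and the T41B values of 13.9 and 14.3 CPM from batch G, which each held a single genotype. The log2 fold change was 0.96 with an SE of 0.19 (edgeR adjusted p = 0.00167), and 0.66 with the batch as a covariate, which did not pass (edgeR adjusted p = 0.0961). It was 0.40 in stimulated VEH slices (adjusted p = 0.232), 0.19 in sham BD10-2 slices (adjusted p = 0.632) and 0.40 in stimulated BD10-2 slices (adjusted p = 0.188). The value in stimulated VEH slices turned on Mouse1524, whose WT slice held 22.9 CPM against 11.5 to 12.9 CPM in the others. Without it Egr2 was 0.69 higher in T41B mice and passed (edgeR adjusted p = 0.00681), and with the batch as a covariate it was 0.15 (adjusted p = 0.680). The average was 0.49 (SE 0.09, edgeR adjusted p = 0.000184), a 1.4-fold difference, 0.50 with the slices of a mouse added (edgeR adjusted p = 0.00784) and 0.33 with the batch as a covariate (edgeR adjusted p = 0.0277). Within batches Egr2 was higher in T41B mice in 6 of the same 7 comparisons, which share mice, with the stimulated slices of batch C as the exception (-0.20).

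Nab1 averaged 0.18 higher in T41B mice (SE 0.07, edgeR adjusted p = 0.0337). The value was 0.08 with the batch as a covariate (edgeR adjusted p = 0.549) and 0.18 with the slices of a mouse added (edgeR adjusted p = 0.138), and the direction within batches was mixed. With no filter on low counts Nab1 did not pass either (0.18, edgeR adjusted p = 0.0581). The call was also lost without any of 8 mice (Mouse1509, Mouse1522, Mouse1551, Mouse1553, Mouse1563, Mouse1564, Mouse1565 and Mouse1590; 0.16 to 0.18, edgeR adjusted p = 0.0505 to 0.0883). Nr4a3 was lower in T41B mice in sham BD10-2 slices, with 101, 113, 115, 124 and 104 CPM against 168, 168 and 136 CPM in WT mice, and the groups did not overlap (log2 fold change -0.50, SE 0.14, edgeR adjusted p = 0.0322). That call was lost with the batch as a covariate (-0.35, edgeR adjusted p = 0.0805), without the samples of 2 libraries (-0.41, adjusted p = 0.214) and without Mouse1557, Mouse1564, Mouse1565, Mouse1571 or Mouse1592 (-0.51 to -0.45, adjusted p = 0.0511 to 0.176). In the other 3 genotype comparisons Nr4a3 had log2 fold changes of -0.18 to 0.05. Its average of -0.16 (edgeR adjusted p = 0.0730) did not pass, but did without Mouse1509 or Mouse1590 (-0.21 and -0.19, edgeR adjusted p = 0.0232 and 0.0498).

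Egr1, Egr3, Egr4, Nr4a1 and Nab2 did not pass in any genotype comparison. Without Mouse1524, whose stimulated slice held the highest value of its group for every member but Nr4a2, Nr4a1 (0.21, edgeR adjusted p = 0.0117) and Nab2 (0.15, adjusted p = 0.0375) passed the averaged test. Of the genes that overlap Nab2, Nemp1 did not pass on average (-0.06, SE 0.08, edgeR adjusted p = 0.595), and Stat6, which shares 40 bases with it, was higher in T41B mice by 0.45 (SE 0.06, edgeR adjusted p = 3.09e-06). In the averaged genotype test 31.5% of all genes passed. Of the markers, all 4 microglial ones (median log2 fold change 0.90) and all 4 astrocyte ones (0.56) were higher in T41B mice on average and 4 of 7 neuronal ones were lower (-0.33). So were 2 of 4 CA pyramidal markers, while 2 of 3 thalamus and 1 of 6 endothelial and pericyte markers were higher, and no dentate, oligodendrocyte, choroid plexus or blood marker passed on average. In VEH mice 1 choroid plexus marker was higher in sham and 1 lower in stimulated T41B slices, where 6.24% and 5.79% of all genes passed. The summed astrocyte level was 848 to 1559 CPM in WT samples and 1921 to 4503 CPM in T41B samples. The part of these shifts in the genotype differences was not tested.

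The third comparison asked whether BD10-2 changed the members. No gene of the 19478 passed in any of the 4 treatment comparisons (0%), nor any of the 9. At an unadjusted p under 0.05 there were 374 genes in sham WT, 1093 in stimulated WT, 431 in sham T41B and 759 in stimulated T41B slices, and DESeq2 called 25 genes in stimulated WT slices and none in the other 3. The treatments were run in different batches, so treatment and batch cannot be told apart. Egr2 in sham WT slices stood at 11.3, 8.67 and 10.1 CPM with BD10-2 and at 6.52, 4.97, 7.23 and 7.74 CPM with VEH, groups that did not overlap (3.52% of all genes). In the other 3 treatment comparisons the groups overlapped for all 9 genes, against separate groups for 6.74%, 0.76% and 1.16% of all genes. Its log2 fold change was 0.60 (SE 0.20, 95% interval 0.18 to 1.02, edgeR adjusted p = 1). In stimulated WT slices Egr2 was -0.01 (95% interval -0.41 to 0.39), in sham T41B slices -0.17 (-0.53 to 0.19) and in stimulated T41B slices -0.01 (-0.36 to 0.34). Over the 36 treatment values of the 9 genes the log2 fold change ran from -0.37 to 0.60, with 95% intervals reaching from -0.80 to 1.02, and 34 of the 36 intervals included 0. The second exception was Egr3 in stimulated WT slices (0.25, interval 0.01 to 0.49, edgeR adjusted p = 0.881).

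The interaction tests asked whether the stimulation response of a member differed with genotype or treatment. None passed, for the 9 genes or any other (0%). In order of stimulation by genotype with VEH and with BD10-2, then by treatment in WT and in T41B mice, 1683, 846, 337 and 526 genes had an unadjusted p under 0.05, and DESeq2 called 1, 20, 0 and 1 genes, none of them among the 9. The Egr2 response was 0.56 smaller in T41B than in WT mice with VEH, as a difference of log2 fold changes of -0.56 (95% interval -1.09 to -0.02, edgeR adjusted p = 0.565). In WT mice its response with BD10-2 differed from that with VEH by -0.61 (-1.19 to -0.03, edgeR adjusted p = 1). Both share the WT VEH groups. Without Mouse1524 they were -0.36 (edgeR adjusted p = 0.901) and -0.41 (adjusted p = 1). The Nr4a3 response was -0.31 in WT and 0.24 in T41B mice with BD10-2, a difference of 0.54 (0.13 to 0.95, edgeR adjusted p = 0.855). The other 33 interaction values of the 9 genes had 95% intervals that included 0.

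Across the 32 samples 25 of the 36 pairs of members correlated positively and 11 negatively. These correlations describe samples that share mice, depth and group, and they carry no test. After the group means were removed, 31 of the 36 pairs of members correlated positively (Pearson's r over log2 CPM), with a median r of 0.33. The closest pairs were Egr4 with Nr4a3 (0.77), Nr4a2 with Nr4a3 (0.75) and Egr1 with Nr4a1 (0.69). Nab1 went against Nr4a3 (-0.35) and Nr4a2 (-0.28). With the group differences kept in, Egr1 and Egr3 correlated at -0.55 and Egr1 and Nab1 at -0.52, while Egr2 and Nab1 correlated at 0.78. The deviation of a mouse's sham slice from its group mean went with that of its stimulated slice at r = 0.78 for Nab2 and at 0.17 (Nr4a2) to 0.43 (Egr2 and Nr4a3) for the other 8 genes (14 mice).

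Among the 11987 genes averaging at least 5 CPM, the patterns most like each member were the following, by Pearson's r over the 32 samples. Egr1 was closest to Irf2bp2 (0.90), Rab3il1 (0.89) and Tpcn1 (0.88), and Egr2 to Sertad1 (0.92), Ier5 (0.91), an immediate-early response gene, and Zfp703 (0.90). Egr3 was closest to Kif17 (0.88), a kinesin motor, Mamld1 (0.86) and Pip5k1a (0.85), and Egr4 to Bicdl1 (0.75), Rundc1 (0.75) and Fmnl1 (0.74). Nr4a1 was closest to Fbrsl1 (0.79), Dbx2 (0.78) and Midn (0.78), Nr4a2 to Zdbf2 (0.84), Cntnap4 (0.84) and Fezf2 (0.83), a factor of deep-layer cortical projection neurons, and Nr4a3 to Hdac4 (0.78), Homer1 (0.75), a synaptic scaffold gene with an activity-induced short form, and Prkar2a (0.70). Nab1 was closest to Samd4 (0.91), Map4k4 (0.91) and Pak2 (0.91), and Nab2 to Bop1 (0.91), Gas2l1 (0.88) and Hsp90ab1 (0.88). With the group means removed these r ran from 0.60 to 0.90. No 2 members shared a gene among these 27, and no member appeared on the list of another.

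Among the upstream activators of the Egr genes, 3 of 9 SRF and MAP kinase genes were higher and 2 lower with stimulation on average, near the share of all genes that passed, 46.8% (median log2 fold change of the list 0.02, all genes -0.03). The Elk-family factor gene Elk4 (0.38), the kinase gene Map2k2 (0.26) and the SRF coactivator gene Mrtfb (0.15) were higher, and the kinase gene Mapk3 (-0.15) and the factor gene Elk1 (-0.16) were lower, while Srf itself was 0.03 (SE 0.06) and did not pass. In T41B mice Elk3 (0.62), Mapk3 (0.22) and Elk4 (0.22) were higher and none was lower. In the averaged genotype test 31.5% of all genes passed.

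Of the 10 CREB and MEF2 genes, which act upstream of the Nr4a genes, 4 were higher and 3 lower with stimulation (median 0.01). Of all genes 46.8% passed that test. Crem (1.27, SE 0.08, edgeR adjusted p = 2.885e-14), whose inducible products include a repressor of CREB sites, Crtc2 (0.54) and the acetyltransferase gene Crebbp (0.14) were the furthest up. Mef2c (-0.78, SE 0.09, edgeR adjusted p = 4.40e-08), expressed in neurons and in microglia, the kinase gene Camk4 (-0.22) and Mef2a (-0.18) were lower. In T41B mice, where 31.5% of all genes passed, Crtc2 was higher (0.18) and Camk4 lower (-0.30). Of the 3 RXR genes Rxrg, which averaged 1.04 CPM, was lower with stimulation (-0.96, SE 0.24, edgeR adjusted p = 0.00192), and none passed for genotype.

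Of 10 genes known as targets of Egr factors, 7 were higher and 1 lower with stimulation (median 0.55), where 46.8% of all genes passed. The adhesion genes Cd44 (3.11, SE 0.18, edgeR adjusted p = 1.36e-14) and Icam1 (1.97) and the protease gene Plau (2.97) led, and Cdk5r1 (-0.13) was lower. Arc, the neuronal target in the list, was 0.04 (SE 0.12, edgeR adjusted p = 0.797). In T41B mice, where 31.5% of all genes passed, 7 were higher and 1 lower (median 0.47). Cd44 (1.57), Icam1 (1.26) and Tgfb1 (1.24) led, and Fn1 (-0.42) was lower. Cd44, Icam1, Plau and Tgfb1 are also made by glia and vessels, and whether Egr factors acted on any of these genes was not tested.

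**Figure D4:**
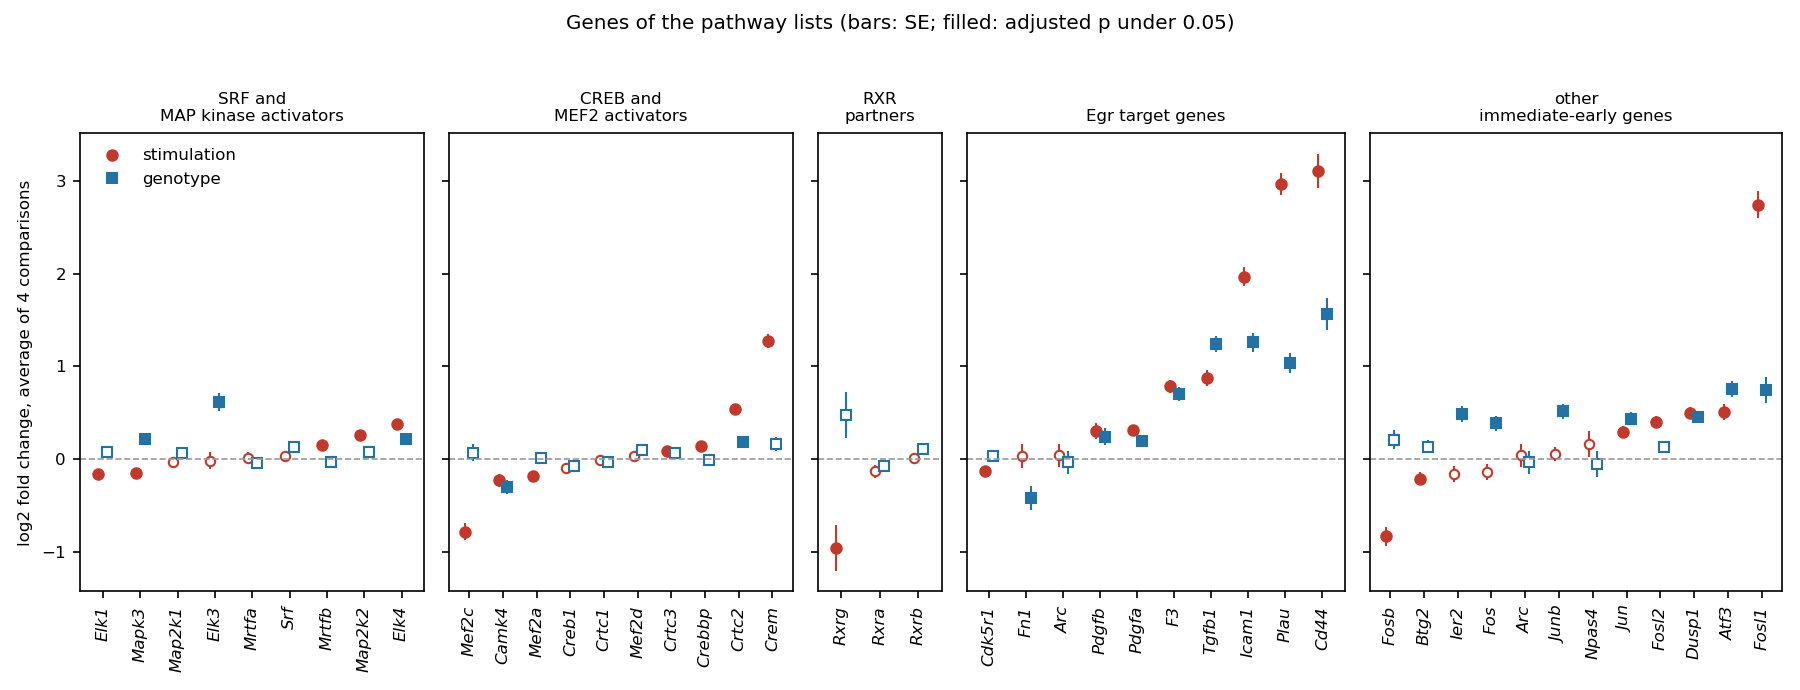
Log2 fold change (vertical axis, SE as bars) of each gene of the 5 pathway lists, averaged over 4 comparisons each, for stimulated against sham slices (red circles) and T41B against WT mice (blue squares), filled where the edgeR adjusted p is under 0.05. Cd44 (3.11), Plau (2.97) and Fosl1 (2.74) stand furthest from 0 with stimulation, whereas the upstream activators other than Crem lie between -0.78 and 0.54.

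Of 12 other immediate-early genes 5 were higher and 2 lower with stimulation (median 0.11), where 46.8% of all genes passed. Fosl1 (2.74, SE 0.15, edgeR adjusted p = 1.89e-15), a late-induced AP-1 subunit, Atf3 (0.51), a stress-response factor, and the MAP kinase phosphatase gene Dusp1 (0.50) were the furthest up. Fosb (-0.83, SE 0.11, edgeR adjusted p = 1.64e-07) and Btg2 (-0.21) were lower, as Egr1 was. Fos (-0.14), Npas4 (0.17), Junb (0.06), Ier2 (-0.16) and Arc did not pass. In T41B mice 7 of the 12 were higher and none lower (median 0.41), led by Atf3 (0.76), Fosl1 (0.75) and Junb (0.52). Of all genes 31.5% passed that averaged test. Of the 9 members 2 were higher and 1 lower in T41B mice (median 0.08), near that share. Among them Nab1 did not pass with the slices of a mouse added or with the batch as a covariate.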

How the data were processed

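Expected counts per gene (RSEM) from 36 libraries of hippocampal slices, as the authors deposited them, were the input, and 5.69% of the values carried decimals. Per the submitters' processing notes the tools were cutadapt 1.8.1, STAR 2.7.6a, RSEM 1.3.1, featureCounts 1.6 and SAMtools 1.11, with the builds GRCm38.p6 and mm10. The library kit was a stranded rRNA-depletion kit, per the labels' protocols, and the strand setting of the counting is not given in the sources used here. The 9 members and the gene lists were chosen with earlier results of these data known.

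Values were rounded to integers, and libraries with the same mouse and stimulation label were added (32 samples). Gene symbols matched 55154 of 55421 identifiers, and 267 had none. The low-count filter was filterByExpr (edgeR) at a minimum count of 10, which left 19478 genes, and TMM factors ran from 0.910 to 1.06. A quasi-likelihood F test (edgeR 4.0.16, R 4.3.3) was fitted with 1 mean per group over all 32 samples, with Benjamini-Hochberg adjustment over all genes and a threshold of 0.05. Averaged comparisons weight the 4 single comparisons equally. The within-mouse test flipped signs of the stimulated minus sham difference of log2(CPM + 1) over the 14 mice with both slices. Nothing in the labels says that samples other than slices of a mouse share an animal. The main edgeR fit has no mouse term, so its p-values measure the spread between slices within groups. The 14 mice with both slices enter that fit with each slice as a separate sample. The p-values of the within-mouse test measure the spread of the stimulation difference between mice.

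Mouse numbers in the labels pair the slices. Slices of the same mouse deviated from their group means together (mean r 0.29 over 14 pairs, 0.053 to 0.552, against -0.078 over 52 pairs of different mice). Alternatives were RLE size factors, no filter, DESeq2 1.42.0, a batch covariate, the mouse as a block, only the compared groups, a pseudocount of 0.25, leaving out the samples of 2 libraries or each mouse, and, added after the data were seen, adding the slices of a mouse. The scripts were tested on simulated data.

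The text names the 9 members, up to 3 genes per direction with the largest change among those called in each pathway list, and the 3 genes most like each member. Stat6, Nemp1, Mog, Srf, Arc, Fos, Npas4, Junb and Ier2 were also named, after their values were seen. Some genes of the pathway and marker lists are not reported here, and the counts, medians and sums of those lists are over the genes that remain.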

Additional observations from a re-analysis of the deposited data

Results flagged for a closer look

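In 5 of 54 groups of 4 or 5 samples tested, 1 sample stood apart from the rest of its group by Dixon's criterion, which chance alone meets in about 1 group in 20. The stimulated T41B VEH slice of Mouse1553 held 230.4 CPM of Egr1, against 303 to 315 CPM in the other 3. Egr2 stood at 22.9 CPM in the stimulated WT VEH slice of Mouse1524, where the others held 11.5 to 12.9 CPM. Without Mouse1524 the genotype difference of Egr2 in stimulated VEH slices was 0.69 in place of 0.40 and passed (edgeR adjusted p = 0.00681). In the sham T41B VEH slice of Mouse1510 Egr2 was 9.63 CPM, below the 13.8 to 14.3 CPM of the others. Mouse1579 stood apart in 2 groups. Its stimulated slice held 116 CPM of Egr3, against 142 to 144 CPM in the other T41B VEH slices, and its sham slice held 69.3 CPM of Egr4, against 40.7 to 42.1 CPM. Without Mouse1553 or Mouse1579 the T41B VEH call of Egr1 was lost, and without Mouse1510 those of Egr2 and Egr3 were lost.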

How the results depend on the processing

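The averaged stimulation calls of Egr1, Egr2, Egr3 and Nab1 and the averaged genotype calls of Egr2 and Nr4a2 kept their direction and stayed past the threshold in every alternative run. For genotype, all alternatives except the added slices count the slices of a mouse as separate samples. No run took account of both mouse and batch for genotype, so these runs do not settle how far the genotype calls depend on them. The counts of members called were less stable, and the share of all genes called, given in parentheses, moved as well. With no filter on low counts 2 members passed with stimulation in WT VEH mice (5.15% of 37214 genes) and 1 in WT BD10-2 mice (3.56%). Without the samples of 2 libraries 1 passed with stimulation in WT BD10-2 mice (5.04%) and 0 for genotype in sham BD10-2 slices (3.37%). With the batch as a covariate 0 passed for genotype in sham VEH slices (1.81%) and 1 in sham BD10-2 slices (4.32%). Leaving out each mouse gave 1 to 2 members with stimulation in WT VEH (6.33% to 8.82%), 1 to 2 in T41B VEH (13.6% to 18.8%), 0 to 2 in WT BD10-2 (3.91% to 6.27%) and 3 to 5 in T41B BD10-2 mice (16.4% to 22.6%). For genotype it gave 1 to 2 in sham VEH (2.85% to 10.6%), 0 to 1 in stimulated VEH (3.48% to 5.98%), 0 to 2 in sham BD10-2 (2.55% to 5.55%) and 0 to 1 in stimulated BD10-2 slices (5.43% to 12.6%), and 2 to 5 for the average (25.2% to 36.5%). Leaving out a mouse also leaves fewer samples in the fit, and the cause of these shifts was not tested.

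With the mouse as a replicate block, which uses the paired slices, 5, 4, 1 and 4 members passed in WT VEH, T41B VEH, WT BD10-2 and T41B BD10-2 mice, against 20.1%, 29.5%, 6.59% and 23.9% of all genes under the same fit. The averaged Nr4a3 value, 0.01 without the block, was -0.0072 with it. Values near 0 also changed sign elsewhere. The Nr4a3 average ran from -0.012 to 0.034 and its within-mouse difference from -0.0025 to 0.070 over the mice left out. The average genotype value of Egr3 ran from -0.061 to 0.044 and was positive without Mouse1565, and that of Egr4 ran from -0.036 to 0.12 and was -0.022 with the batch as a covariate. Within mice Nr4a1 passed with RLE size factors (0.16, exact sign-flip adjusted p = 0.0428) and without Mouse1553, Mouse1565 or Mouse1570 (0.17 to 0.18, adjusted p = 0.0352 to 0.0490). A batch covariate could not be fitted for treatment. Egr2, with as few as 69 counts, carries the most counting error.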
